A study of Mus musculus with 51 samples.

Results

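Slc17a7, Snap25, Calb2 and Thy1 are 4 genes that mark glutamatergic neurons and spiral ganglion neurons, the cells that carry sound information from the inner ear to the brainstem. They were chosen by name, with earlier results of these data known, and they make up 4 of the 6248 genes measured in captured regions of the mouse cochlea. All animals were male CBA/CaJ mice aged 16 weeks, a strain with good hearing that is often used in noise studies. Mice of the noise group were exposed for 2 h to broadband noise of 100 dB SPL and those of the mock group to no noise, with 5 mice in each. The labels name no transgene and no drug. Sample titles add 4 h to the exposure, whereas the text on the study's design places collection directly after it, so the time after noise is not settled. Fresh-frozen cochlear sections of 6 µm were read with GeoMx, which releases barcoded probes from chosen regions of a section and counts them by sequencing. The 51 regions were 16 mock neuron, 13 noise neuron, 14 mock supporting-cell and 8 noise supporting-cell regions. Replicate 6 of the noise neurons held a single repeated value and was left out, which leaves 12 noise neuron regions and 50 regions in all.

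Glutamate is the transmitter of spiral ganglion neurons at their central endings. Slc17a7 encodes VGLUT1, which loads glutamate into synaptic vesicles, and Snap25 encodes a plasma-membrane SNARE protein that lets those vesicles fuse. Calb2 encodes calretinin, a cytosolic calcium buffer whose level differs between subtypes of type I spiral ganglion neurons, and Thy1 encodes a GPI-anchored surface protein of the immunoglobulin family found on many neurons.

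The 4 genes lie on 4 chromosomes of GRCm38.p6, per RefSeq. Slc17a7 (gene 72961) spans chr7:45163921-45176139, Snap25 (gene 20614) chr2:136713439-136782428, Calb2 (gene 12308) chr8:110142526-110168212 and Thy1 (gene 21838) chr9:44043384-44048579. The 250 bases before the start of Slc17a7, chr7:45163671-45163920 on the plus strand, are shown; it was the only member with an entry in the promoter table used here. Capitals mark the GC box GGGCGG and its reverse complement CCGCCC.
Slc17a7: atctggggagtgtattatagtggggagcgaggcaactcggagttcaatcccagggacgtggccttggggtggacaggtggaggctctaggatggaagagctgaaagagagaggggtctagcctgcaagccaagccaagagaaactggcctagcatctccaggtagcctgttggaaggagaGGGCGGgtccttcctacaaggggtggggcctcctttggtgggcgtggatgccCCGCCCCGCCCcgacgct
This window holds 3 GC boxes, which begin 70, 18 and 13 bases before the gene start, and the last 2 overlap. At least 1 GC box on either strand occurs in 32.7% of the 32851 RefSeq promoter windows of this length. The letters TATAAA, in either strand, do not occur in it, and 12.4% of the windows hold them. These matches describe the sequence and are not binding sites seen in these data.

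The deposited signal of each region had been scaled to the same upper quartile (3.12), and division by the value of 1 read gave back whole reads. Recovered totals ran from 10147 to 58022 reads per region in mock neurons, 12128 to 88156 in noise neurons, 9607 to 22926 in mock supporting cells and 11770 to 25605 in noise supporting cells. A gene never stood below 1 read, which is called the floor here. At the median, 31.3% of genes were at the floor in mock neuron regions and 19.2% in noise neuron regions. These shares were 51.6% in mock and 35.4% in noise supporting-cell regions, so the floor differed between treatments as well as region types. Neuron regions bore their label out: the summed signal of 11 of 15 neuron markers present in the files, the 4 members among them, ran from 168 to 400 in mock neurons and from 48.9 to 111 in mock supporting cells. The other 7 were all called higher in mock neurons, with a median log2 difference of 1.61. Supporting-cell regions carried markers of Schwann and satellite glia, 12 of 15 present, whose sum ran from 120 to 209 under mock exposure against 34.3 to 65.5 in mock neurons. The neuronal tubulin Tubb3 stood at 7.16 ± 3.42 (SD, n = 16) in the mock neuron regions and at 3.14 ± 1.77 (n = 14) in the mock supporting-cell regions. Of 10 markers of the supporting cells of the organ of Corti only Sox2 and Prox1 were in the files, at a median of 1 read in mock and 2 in noise supporting-cell regions. Markers of hair cells (3 of 10 present), oligodendrocytes (3 of 7), endothelium (3 of 7) and blood (1 of 6) had medians of 1 to 3 reads, and 0 of 8 macrophage markers were present. Bone and connective tissue markers (5 of 10) summed to 25.0 to 48.3 in mock neurons, 14.6 to 32.02 in noise neurons, 17.7 to 47.8 in mock supporting cells and 9.36 to 30.4 in noise supporting cells. These sums join markers that went opposite ways. Of the 3 tested, limma called Spp1 higher in mock neurons than in mock supporting cells (log2 1.56). It called Coch (-1.74) and Sparc (-0.79) lower there. The regions are therefore named as titled, with the limit that their defining markers were those of glia. Area names began with a prefix that differed by treatment, so treatment and any slide or scan cannot be told apart. Which region came from which mouse is not in the labels, and every group held more regions than the 5 mice. Some regions thus came from the same mouse. All p-values below that treat regions as replicates are therefore too small, and the intervals are too narrow.

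Slc17a7, the vesicular glutamate transporter, was higher in neuron regions than in supporting-cell regions under both exposures. Its signal ran from 6.24 to 20.5 with a median of 14.3 in the 16 mock neuron regions, and from 1.56 to 10.9 with a median of 5.20 in the 14 mock supporting-cell regions. The ranges overlapped, although 12 of 16 neuron regions lay above every supporting-cell region. The group means were 13.7 ± 4.07 (SD, n = 16) and 5.44 ± 2.78 (n = 14), a log2 difference of 1.26, SE 0.20 (adjusted p 3.01e-08 by limma). All 4 genes were called higher in mock neurons. Of the 4686 genes tested 19.1% were called there, 13.4% higher and 5.63% lower in neurons. Such calls were common at this level. Among the 110 genes whose mean signal was at or above the lowest of the 4 members (8.35), 72 were called higher and 1 lower. Their median log2 difference was 1.17, and 62 of the 110, Slc17a7 included, were at or below the Slc17a7 difference. The 110 were picked by their mean over all regions, so a gene can enter this set through high neuron values alone. Fold changes here are on the log2(signal + 1) scale, which makes changes of low genes look smaller, and the SE is drawn from genes of a similar mean. After noise the signal ran from 3.12 to 12.5 (median 7.68) in the 12 neuron regions and from 1.04 to 6.24 (median 2.96) in the 8 supporting-cell regions. Here 8 of 12 neuron regions exceeded every supporting-cell region, and the means were 7.93 ± 3.05 and 3.44 ± 2.37. The log2 difference was 1.12, SE 0.26 (adjusted p 0.000539 by limma), and all 4 genes were again called higher in neurons, against 7.94% of genes called in either direction, 6.76% higher and 1.17% lower in neurons. Of the 110 genes at the members' level, 69 were called higher and 2 lower, with a median log2 difference of 1.02. In the order of group means, noise neurons and mock supporting cells were neighbours whose mean ± SD ranges overlapped.

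Snap25, the SNARE protein of vesicle fusion, separated the mock region types further than Slc17a7 did. It ran from 9.36 to 35.9 (median 23.3) in mock neurons and from 1.56 to 13.5 (median 5.46) in mock supporting cells. Only mock neuron replicates 2 and 4, at 12.5 and 9.36, fell into the supporting-cell range. The means were 23.2 ± 6.29 and 6.33 ± 3.11, a log2 difference of 1.79, SE 0.19 (adjusted p 5.84e-18 by limma). After noise the neuron regions ran from 9.36 to 24.9 (median 14.3) and the supporting-cell regions from 0.780 to 13.5 (median 6.24). Noise supporting-cell replicate 3 held the highest of these 8 values, and 7 of 12 neuron regions exceeded it. The means of 15.5 ± 4.43 and 6.50 ± 3.61 differed by a log2 difference of 1.27, SE 0.24 (adjusted p 1.39e-05 by limma). The 2 supporting-cell groups stood next to each other and their ranges coincided over most of their length.

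Calb2, the calcium buffer calretinin, varied most among mock neuron regions. It ran there from 9.36 to 49.9 with a median of 16.4, and replicates 1 and 9, at 39.0 and 49.9, stood above the next highest at 24.2. The mean was 19.9 ± 10.7 (SD, n = 16), so the SD exceeded 50% of the mean, which it did not for the other 3 genes. Mock supporting-cell regions ran from 1.04 to 12.5 (median 3.12, mean 4.33 ± 3.35), and 4 of these 14 were at the floor of 1 read. The groups differed by a log2 difference of 2.07, SE 0.20 (adjusted p 1.15e-22 by limma), with 13 of 16 neuron regions above every supporting-cell region. The SE from Calb2's own spread was larger, at 0.27. After noise the neuron regions ran from 6.76 to 24.9 (median 15.0, mean 15.5 ± 5.87) and the supporting-cell regions from 1.56 to 8.73 (median 5.46, mean 5.54 ± 2.60). This was a log2 difference of 1.36, SE 0.25 (adjusted p 5.31e-06 by limma), and 10 of 12 neuron regions lay above all supporting-cell regions.

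Thy1, the neuronal surface protein, was the member whose mock groups did not overlap. Its 16 mock neuron regions ran from 20.8 to 42.6 (median 29.1) and the 14 mock supporting-cell regions from 4.16 to 12.5 (median 6.24). Only 28 of the 4686 genes tested (0.598%) had every mock neuron region above every mock supporting-cell region. The means were 30.5 ± 5.82 and 7.00 ± 2.48, a log2 difference of 2.01, SE 0.18 (adjusted p 2.06e-25 by limma). The SE from Thy1's own spread was smaller, at 0.13. After noise the neuron regions ran from 13.5 to 35.2 (median 27.1, mean 26.8 ± 7.11) and the supporting-cell regions from 3.12 to 14.3 (median 7.02, mean 7.35 ± 3.85). Noise neuron replicate 10, at 13.5, was the only neuron region not above the highest supporting-cell region, and none of the 4 genes separated the noise groups fully, as 0.299% of genes did. The log2 difference was 1.82, SE 0.23 (adjusted p 1.48e-12 by limma).

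**Figure D1:**
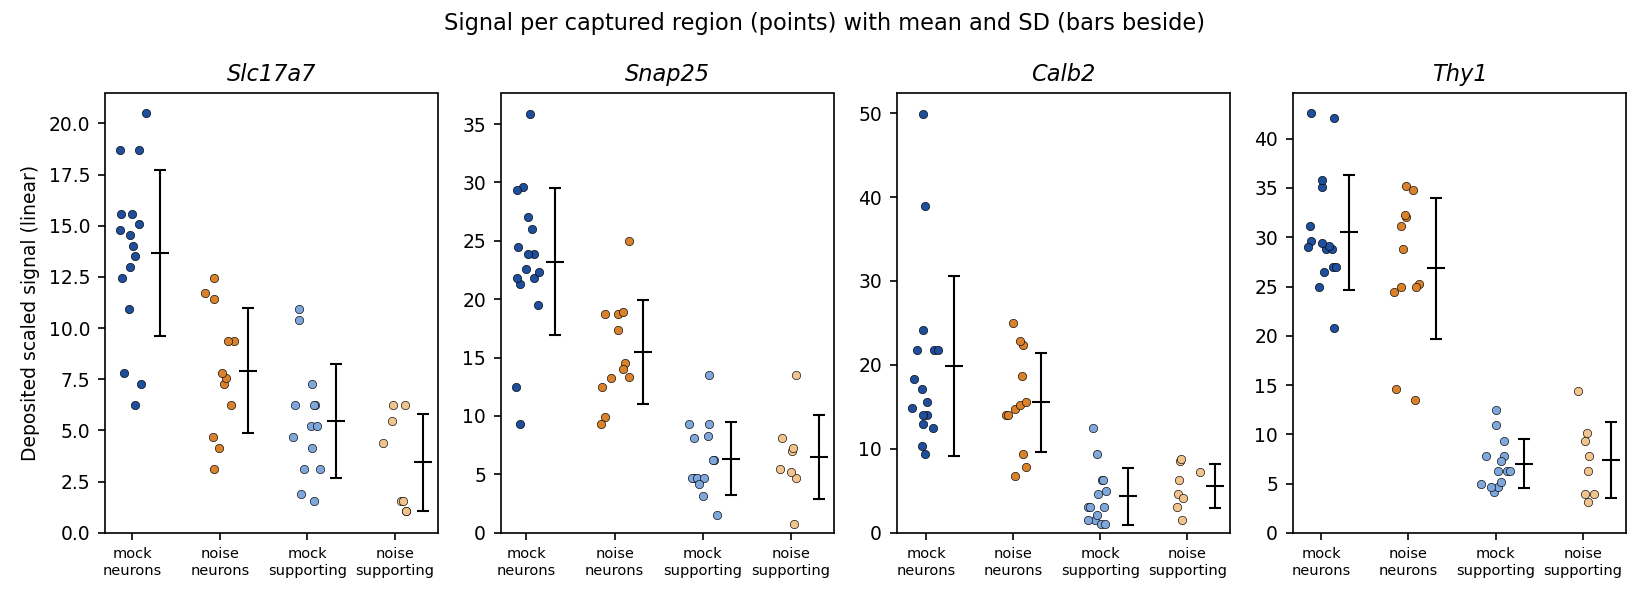
Deposited scaled signal (linear axis from 0) of Slc17a7, Snap25, Calb2 and Thy1 in each captured region (points) of 16 mock neuron, 12 noise neuron, 14 mock supporting-cell and 8 noise supporting-cell regions, with mean and SD as bars beside them. Thy1 in mock neurons starts at 20.8, above the supporting-cell maximum of 12.5, and the highest Slc17a7 value in noise neurons is 12.5 against 20.5 in mock neurons.

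A test that used each gene's own spread, the two-sided permutation test over regions of the mean log2(signal + 1), gave p = 1e-05 for Snap25, Calb2 and Thy1 and 2e-05 for Slc17a7 between mock region types. The first of these is the smallest that the 100000 resamples can give. Between noise region types the exact permutation test gave 0.00201 for Slc17a7, 7.14e-05 for Snap25, 0.000159 for Calb2 and 1.59e-05 for Thy1. These belong to 16 such tests (4 genes in 4 comparisons), and region p-values are too small for the reason given above. Between noise region types the SE from each gene's own spread was larger than that of limma. It was 0.33 for Slc17a7, 0.33 for Snap25, 0.28 for Calb2 and 0.27 for Thy1.

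Captured areas that held both region types allowed the comparison within an area. Under mock exposure, 14 of 14 areas had more signal in the neuron region for each of the 4 genes, as 96 of 4686 genes did (2.05%). The mean log2 difference within a mock area was 1.29 ± 0.62 (SD, n = 14) for Slc17a7, 1.85 ± 0.70 for Snap25, 2.07 ± 0.65 for Calb2 and 1.98 ± 0.41 for Thy1. An exact two-sided sign-flip test gave p = 0.000122 for each, the smallest that 14 areas allow. After noise, Snap25, Calb2 and Thy1 were higher in the neuron region of 7 of 7 areas, as were 4.16% of genes, by 1.27 ± 0.73, 1.55 ± 0.54 and 1.69 ± 0.72. The exact p was 0.0156 for each, again the smallest possible. Slc17a7 was higher in 6 of 7 noise areas, by 1.13 ± 0.93 (exact sign-flip p = 0.0469). In the remaining area the supporting-cell region was at 5.46 and the neuron region at 4.16. The labels do not say which areas came from the same animal, so these p-values are too small as well.

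**Figure D2:**
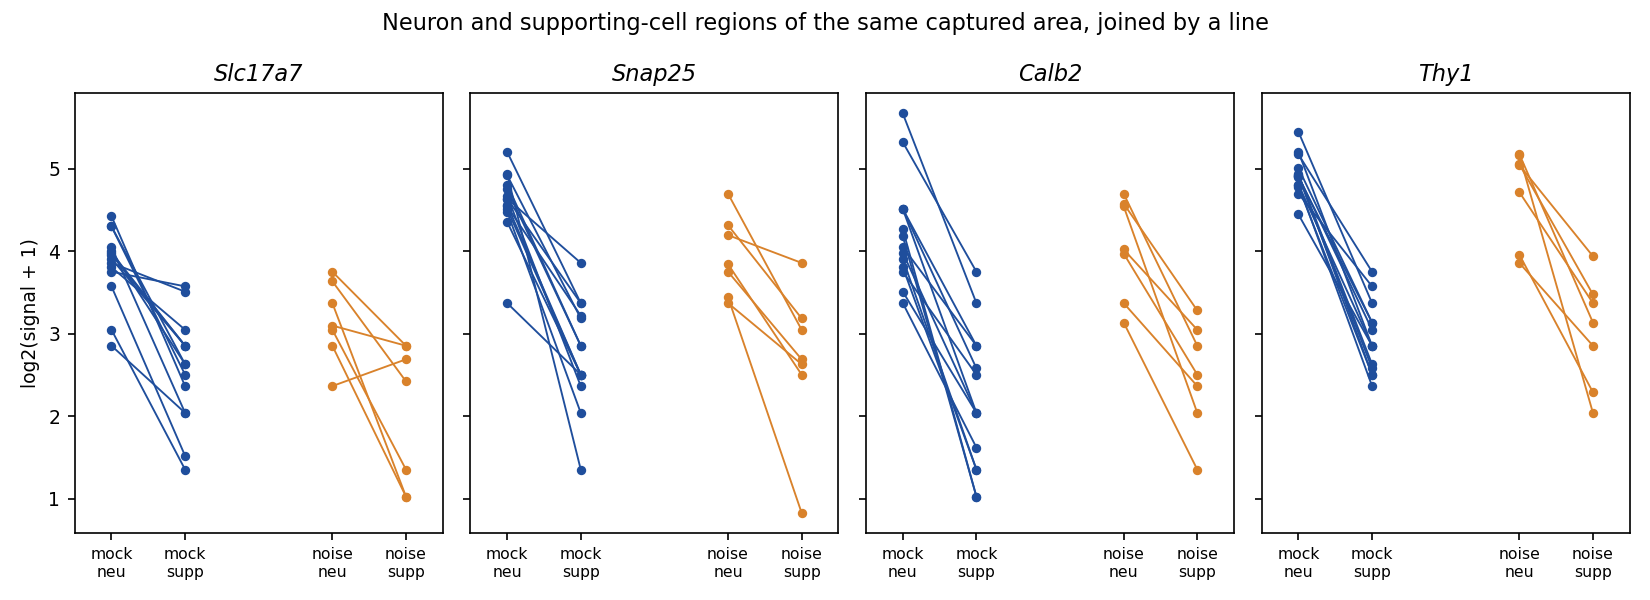
Log2(signal + 1) of each gene in the neuron and supporting-cell region of the same captured area, joined by a line, for 14 mock areas (blue) and 7 noise areas (orange). Every line falls from neurons to supporting cells apart from 1 noise area for Slc17a7, where the difference is -0.32.

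Noise and mock exposure were compared within neuron regions next, to ask whether the identity genes moved after sound exposure. Slc17a7 was lower after noise, with a median of 7.68 against 14.3, but the difference did not pass the threshold over all genes. All 12 noise neuron regions lay below the mock mean of 13.7, as they did on the log2 scale for 44 of 4686 genes (0.939%), and noise replicates 1, 9 and 12 lay below every mock region. Conversely 11 of 16 mock regions lay above every noise region. Reads were few at the low end: noise replicates 1, 9 and 12 held 9, 2 and 4 reads of Slc17a7. The lowest mock region, replicate 4, held 4. The mean difference was -0.74 on the log2 scale (SE 0.21, 95% interval -1.16 to -0.32), with a limma p of 0.000501, rank 33 of 4686, and an adjusted p of 0.0631. Without mock neuron replicate 3 or 4, or noise neuron replicate 4, the limma adjusted p was 0.0418, 0.0336 and 0.0437, and without any other single region the call was not made. The permutation test over regions, which uses the gene's own spread, gave p = 0.00062. Summed over regions, Slc17a7 took 8.16 of every 10000 recovered reads under mock exposure and 5.17 after noise. In captured regions, fewer neurons and less RNA per neuron cannot be told apart.

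Snap25 was also lower in noise neurons, with a median of 14.3 against 23.3, and 11 of 12 noise regions lay below the mock mean. No noise region lay below every mock region, because mock replicate 4 was as low as the lowest noise region, at 9.36. The difference of -0.55 (SE 0.20, 95% interval -0.95 to -0.15) had a limma p of 0.00687 and an adjusted p of 0.188. The permutation test gave p = 0.0023. Calb2 had medians of 15.0 after noise and 16.4 after mock exposure, and its difference of -0.29 (95% interval -0.70 to 0.12) had a limma adjusted p of 0.556. Thy1 had medians of 27.1 and 29.1 and a difference of -0.21 (95% interval -0.59 to 0.17, limma adjusted p 0.666). The noise and mock ranges of Calb2 and of Thy1 overlapped, and their permutation p-values were 0.209 and 0.122. In this comparison the own-spread SE was smaller than that of limma for Slc17a7 (0.19), Snap25 (0.16) and Thy1 (0.14). It was slightly larger for Calb2 (0.22).

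Thus limma called 0 of the 4 genes in neurons, where it called 31 of 4686 (0.662%), and 2 of the 4, Slc17a7 and Snap25, had an unadjusted p below 0.05, as 13.5% of genes did. On recovered reads, edgeR called Slc17a7 (adjusted p 0.000769) and Snap25 (adjusted p 0.00262), among 161 of 4636 genes (3.47%). DESeq2 called the same pair with adjusted p of 0.000547 and 0.000541, among 126 (11%) of the 1148 genes to which it gave an adjusted p. The call for Slc17a7 therefore hung on the test. Regions outnumber animals in each of these fits, which makes all of the p-values too small.

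Other measures moved with these differences. Among 110 genes whose mean signal was at or above the lowest of the 4 members (8.35), 86.4% were lower in noise neurons, with a median log2 difference of -0.31, whereas the median over all genes tested was 0.02. Slc17a7 had 5 of the 110, itself included, at or below its difference. The 110 were picked by their mean over the same regions, more of them mock than noise. The set can therefore lean towards genes that are high under mock exposure. The mean log2 signal of 568 olfactory receptor genes, a background measure, was 1.60 ± 0.11 in noise neurons and 1.41 ± 0.11 in mock neurons. With it as a covariate the Slc17a7 difference was -0.65 (limma adjusted p 0.501) and that of Snap25 -0.25 (limma adjusted p 0.866). That fit used a common slope for both region types. After subtraction of group means, Slc17a7 correlated with this measure at r = -0.57 over neuron and 0.43 over supporting-cell regions. A common slope thus describes neither region type for Slc17a7. For Snap25 the values were -0.30 and -0.32. The negative probe differed less, at 1.12 ± 0.23 and 1.09 ± 0.31. Glia markers summed to 23.9 to 42.6 in noise neurons and 34.3 to 65.5 in mock neurons. Of 11 glia markers tested, 10 had a difference below 0 in neurons (median log2 -0.31) and limma called 1 of them. The part of these measures in the Slc17a7 and Snap25 differences was not tested beyond the covariate fit.

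Within neuron regions, deviations from the group mean of Slc17a7 correlated with log10 total reads at r = 0.60 and with the negative probe at r = -0.68 over 28 regions, which share libraries and scaling. For Snap25 these were 0.52 and -0.47, for Calb2 0.23 and -0.22, and for Thy1 0.11 and 0.00. Over the 22 supporting-cell regions the values for Slc17a7 were 0.09 and 0.20, those for Snap25 0.21 and -0.32, those for Calb2 0.09 and -0.04, and those for Thy1 -0.04 and 0.22. These are descriptions, and differences between the correlations were not tested. Median totals were 23494 reads in mock and 26710 in noise neurons, and with log10 total reads as a covariate the Slc17a7 difference was -0.82 (limma adjusted p 0.0231).

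In supporting-cell regions none of the 4 genes was called after noise by limma, which called 17 of 4686 genes (0.363%). Nor did edgeR, with 7 of 4636 called (0.151%), or DESeq2, with 12 of 429 (2.8%), call any of the 4. Slc17a7 alone had an unadjusted limma p below 0.05, as 10.1% of genes did. Its signal ran from 1.04 to 6.24 (median 2.96) after noise and from 1.56 to 10.9 (median 5.20) after mock exposure, with median counts of 3 and 4 reads. At this depth 4 of 8 noise regions, replicates 1, 4, 5 and 7, held 1 or 2 reads. The difference was -0.61 (SE 0.25, 95% interval -1.09 to -0.12, limma adjusted p 0.335), and the exact permutation p was 0.0719. The SE from Slc17a7's own spread was larger, at 0.34, so the limma interval is too narrow for this gene. Own-spread SEs were also larger than those of limma for Snap25 (0.35), Calb2 (0.33) and Thy1 (0.26). Snap25 and Thy1 differed by -0.03 (95% interval -0.49 to 0.43) and -0.02 (95% interval -0.45 to 0.42). Calb2 was at a median of 5.46 after noise and 3.12 after mock exposure, a difference of 0.42 (95% interval -0.06 to 0.89, limma adjusted p 0.583, exact permutation p 0.248). Glia markers summed to 55.1 to 99.8 in noise and 120 to 209 in mock supporting-cell regions. All 11 glia markers tested had a difference below 0 (median log2 -0.75), and limma called 4 of them. Their part in the values of the 4 genes was not tested.

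Whether the effect of noise differed between region types was tested as an interaction. For Slc17a7 the difference of effects was -0.14 (95% interval -0.78 to 0.51, limma adjusted p 0.97), so the lower values in neurons were not shown to be particular to them. It was -0.52 for Snap25 (95% interval -1.13 to 0.09), -0.71 for Calb2 (-1.33 to -0.08) and -0.19 for Thy1 (-0.77 to 0.38). Calb2 had an unadjusted limma p of 0.0272 and an adjusted p of 0.763. From its own spread, the SE of its noise effect was 0.33 in supporting cells, against 0.24 by limma. In neurons it was 0.22 against 0.21. Limma, edgeR and DESeq2 each called 0 genes in this comparison, and 263 of 4686 (5.61%) had an unadjusted limma p below 0.05. Within captured areas, the neuron excess was smaller after noise by 0.58 for Snap25 (exact permutation p 0.091), 0.51 for Calb2 (0.0881), 0.29 for Thy1 (0.248) and 0.16 for Slc17a7 (0.64), over 14 mock and 7 noise areas.

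**Figure D3:**
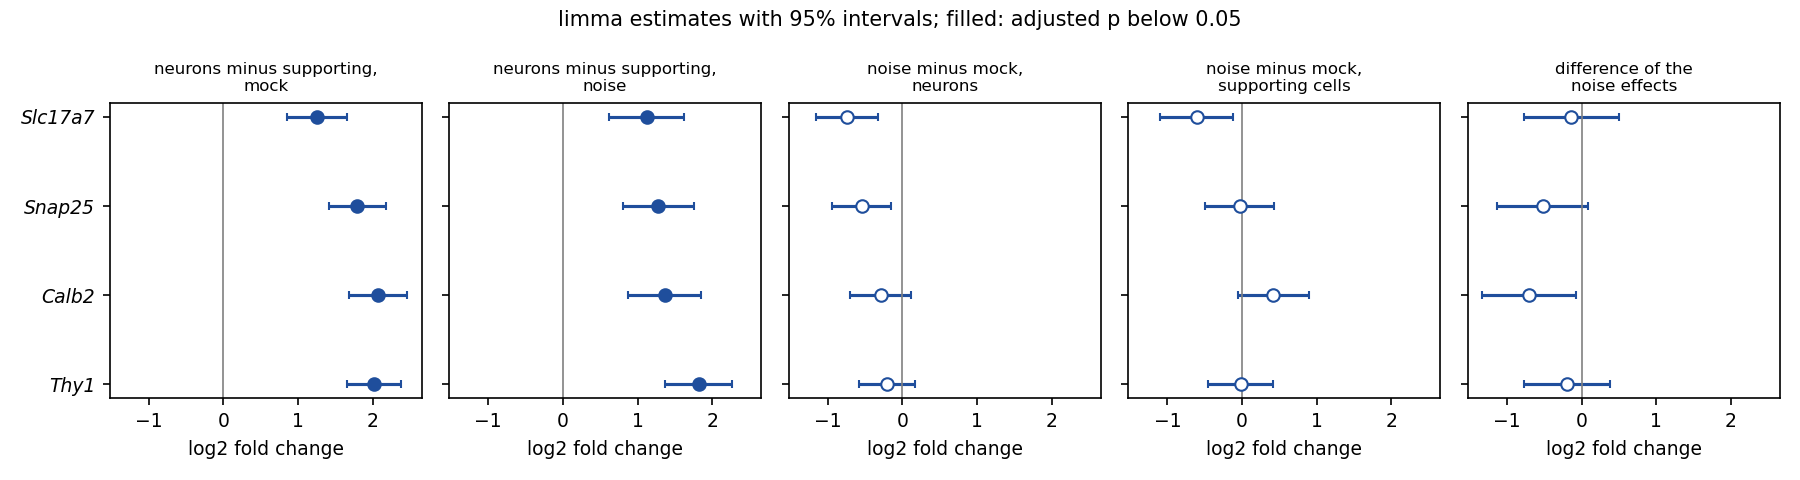
Log2 fold changes of the 4 genes with 95% intervals in the 5 comparisons, from limma on log2(signal + 1); filled points have an adjusted p below 0.05. The 8 estimates between region types are filled and lie between 1.12 and 2.07, and the 12 estimates on noise are open, with Slc17a7 in neurons at -0.74.

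The ratio of 2 genes within a region does not depend on the scaling of that region. The log2 ratio of Slc17a7 to Thy1 was -1.21 ± 0.56 (SD, n = 16) in mock neurons and -1.82 ± 0.70 (n = 12) in noise neurons. At the median, Slc17a7 stood at 49.7% of the Thy1 signal of its region in mock neurons and at 31.4% in noise neurons. That of Snap25 to Thy1 was -0.43 ± 0.52 and -0.79 ± 0.34, with Snap25 above Thy1 in 2 mock neuron regions and in 0 noise neuron regions. The ratio of Calb2 to Thy1 was -0.75 ± 0.62 and -0.84 ± 0.42. The mock and noise ranges overlapped for all 3 ratios, and a level of either gene cannot be read from them, since probes differ in efficiency.

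**Figure D4:**
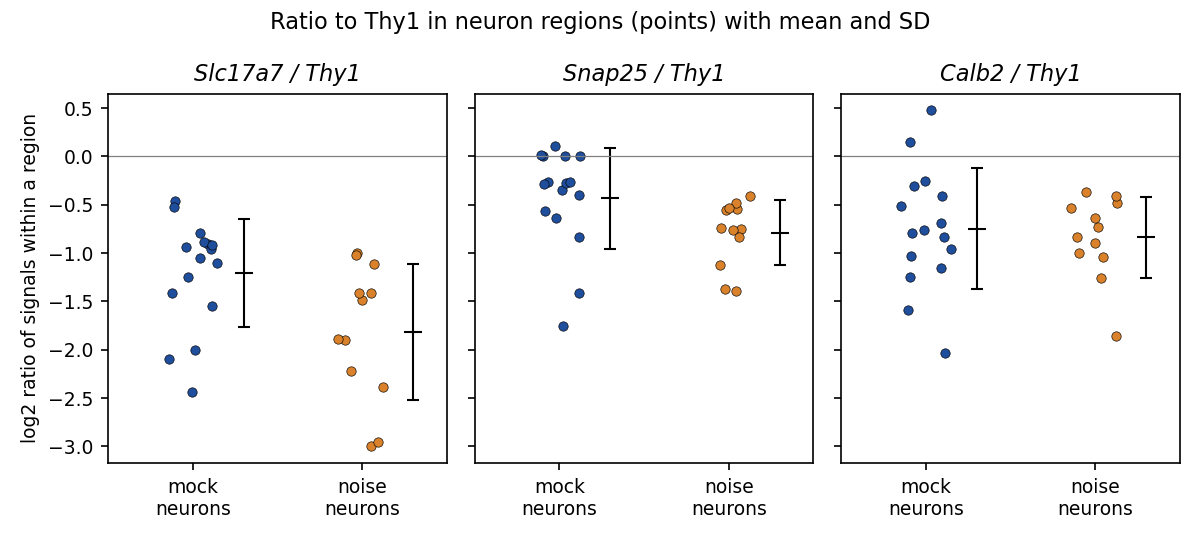
Log2 ratio of Slc17a7, Snap25 and Calb2 to Thy1 within each neuron region (points), with mean and SD as bars, for 16 mock and 12 noise regions. The mean ratio of Slc17a7 is -1.21 in mock and -1.82 in noise neurons, and that of Calb2 is -0.75 and -0.84.

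Genes of the same pathways were read from lists chosen by function. The shares over all genes given beside them are not matched for level. Of the 110 genes at or above the lowest member's level, 72 were called higher in mock neurons and 69 in noise neurons. Of 57 genes of glutamatergic transmission 18 were tested, and 6 were higher and 1 lower in mock neurons than in mock supporting cells (median log2 difference 0.38, against -0.05 over all genes). Slc17a7 is 1 of the 6, so 5 of the 17 other genes were higher, where 13.4% of all genes were. Slc38a1, a glutamine transporter that feeds glutamate synthesis, was higher by 1.69 (limma adjusted p 2.62e-14), the postsynaptic scaffold Dlg4 by 1.44 (1.64e-10) and the NMDA receptor subunit Grin1 by 1.01 (7.35e-06). Glul, the glutamine synthetase of glia, was lower in neurons by -1.35 (limma adjusted p 1.62e-09). The other vesicular glutamate transporters were not called: Slc17a6 had 0.35 (limma adjusted p 0.192) and Slc17a8, the transporter of inner hair cells, -0.22 (0.41). After noise 3 of the 17 other genes were higher in neurons and 1 lower, where 6.76% of all genes were higher and 1.17% lower, with Dlg4 at 1.21 and Slc38a1 at 1.03.

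Part of the release machinery around Snap25 was also called between region types. Of 65 listed genes 28 were tested, and besides Snap25 12 of 27 were higher and 0 lower in mock neurons (median 0.47), and 6 and 0 after noise (median 0.39), against the same shares of 13.4% and 6.76% higher over all genes. The vesicle protein Sv2c was higher by 1.63 and complexin Cplx1 by 1.58 (limma adjusted p 2.64e-13 and 4.53e-13). Of 12 calcium-binding proteins tested besides Calb2, 6 were higher and 1 lower in mock neurons (median 0.64), among them the calmodulin gene Calm2 at 1.42 and parvalbumin Pvalb at 1.13. S100a1 was the 1 lower, at -0.62 (limma adjusted p 0.00971). Of 23 GPI-anchored and immunoglobulin-domain surface proteins besides Thy1, 8 were higher and 0 lower, with Lypd1 at 1.49, Nptn at 1.37 and Cntn1 at 1.24. Beside the calcium-binding and surface counts, 13.4% of all genes were higher and 5.63% lower in mock neurons. These region-level p-values share the limit of regions outnumbering animals.

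Of 43 tested genes of spiral ganglion neuron identity, a list that holds all 4 members, 29 were higher in mock neurons and 0 lower (median 0.96). The neurofilament genes Nefl and Nefm were higher by 2.10 and 1.90 (limma adjusted p 1.19e-35 and 2.22e-24). After noise 23 of the 43 were higher in neurons and 0 lower (median 0.72). Without the 4 members the counts were 25 and 19 of 39. Over all genes 13.4% were higher in mock neurons and 6.76% in noise neurons. Of the 110 genes at or above the lowest member's level, 72 and 69 were, so such counts are common at a high level.

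In neurons after noise, how many of these genes were called depended on the test. Limma called 0 of 18 glutamatergic genes, 0 of 28 release genes, 1 of 13 calcium-binding genes, 2 of 43 identity genes and 0 of 24 surface proteins, where it called 0.662% of all genes. At an unadjusted limma p below 0.05 there were 3, 6, 4, 15 and 4, against 13.5% of all genes. By edgeR, which called 3.47% of all genes, the calls were 1 (Slc17a7), 4 (Snap25, Syp, Syt7 and Vamp1), 2, 12 and 4, with 17 and 26 genes tested in the first 2 lists. By DESeq2, which called 11% of the 1148 genes it gave an adjusted p, they were 2, 5, 2, 13 and 2. All of these edgeR and DESeq2 calls were lower after noise, and the lists hold the members. Calm2, the calcium-binding gene that limma called, fell from 17.4 ± 3.86 to 10.0 ± 3.37 (log2 -0.77, limma adjusted p 0.0392). Of the identity genes, the neurofilament Nefh fell from 46.3 ± 9.61 to 29.2 ± 8.05 (log2 -0.68, limma adjusted p 0.0224). The list medians were -0.22 for glutamatergic, -0.17 for release, -0.19 for calcium-binding, -0.27 for identity and -0.17 for surface genes. The median was 0.02 over all genes and -0.31 over the 110 genes at or above the lowest member's level. Differences were below 0 in 17 of 18, 22 of 28, 10 of 13, 36 of 43 and 18 of 24 genes, and in 86.4% of those 110. In supporting cells limma, edgeR and DESeq2 called 0 genes of the 5 lists. There 2 glutamatergic, 3 release, 0 calcium-binding, 6 identity and 2 surface genes had an unadjusted limma p below 0.05, as 10.1% of all genes did.

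The members did not vary as a block from region to region. After subtraction of each group's mean, Slc17a7 and Snap25 correlated at r = 0.57 over the 28 neuron regions, Calb2 and Thy1 at 0.49, Snap25 and Calb2 at 0.46, and Slc17a7 and Thy1 at 0.12. Over all 50 regions the genes most like Slc17a7 included Mdga1 (r = 0.56), a GPI-anchored synaptic adhesion protein, the ATP synthase subunit Atp5a1 (0.55) and the ribosomal protein gene Rpl23 (0.53). Those most like Snap25 were the potassium channel Kcnc1 (0.58), the clock gene Nr1d2 (0.57), the endosomal syntaxin Stx7 (0.55) and Vegfb (0.54). Calb2 was most like Klc1, a kinesin light chain (0.72), Nefl (0.70), the ubiquitin gene Ubb (0.62) and the axonal scaffold Ank2 (0.62). Those most like Thy1 included Gnas (0.56), Ndufb6 (0.56) and Usp9x (0.55). These are among the highest of 4646 genes compared, the regions share depth and scaling, and the values are given as a description.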

How the data were processed

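Signal values were deposited by the authors as 1 file per region and as a table of the whole series with the same values. Per the submitters' processing notes, DRAGEN was used with mm10 and GRCm38; the scaling is not given in the sources used here. Within a region, 99.99% of values were whole multiples (within 0.01) of its lowest value, taken as 1 read; 66 entries held no number, none in the 4 genes. The main test was limma 3.58.1 in R 4.3.3 (lmFit, eBayes with trend) on log2(signal + 1), with 4 group means over 50 regions. Genes whose mean reached the 0.25 quantile were tested (4686 of 6248), all 4 members among them, with Benjamini-Hochberg adjustment over them and a threshold of 0.05. Intervals (95%) are normal intervals from the limma SE, and regions that share a mouse make them too narrow. The recovered reads were tested with edgeR 4.0.16 (quasi-likelihood) and DESeq2 1.42.0. Single genes had permutation tests (numpy 2.4.6, exact or 100000 resamples). The fit was tested on simulated data. Promoter sequence and gene positions came from RefSeq tables for GRCm38.p6, in which 4 of 4 members matched and 1 had a promoter entry.

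The members and lists were chosen with earlier results of these data known. Named genes were the members, for each the 4 genes with the highest within-group correlation, up to 3 called genes per list, comparison and direction by adjusted p, and the markers Mbp, Nefl and Tubb3. Some genes picked by this rule are left out of the text. A few further genes are named in the text: Slc17a6 and Slc17a8 as relatives of Slc17a7, Sox2 and Prox1 as markers, and the release genes that edgeR called. These were added after their values were seen. The label of noise supporting-cell replicate 8 lists a read file of another well, and its values were used as titled. Alternatives covered the pseudocount, filter, scaling, background, blocks, covariates and each region left out.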

Additional observations from a re-analysis of the deposited data

Results flagged for a closer look

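Among 12 quantities looked at in the 8 noise supporting-cell regions, 2 had a region far from the others (gap over range above 0.526, which chance gives in about 1 of 20 groups). In replicate 2 the negative probe had a value of 1.893, with the others at 1.241 to 1.445. Mbp, a myelin gene, was at 8.316 in replicate 3, with the others at 1.559 to 4.158. None of the 4 members was set apart in this way, and groups of more than 10 regions were not examined.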

How the results depend on the processing

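The 8 differences between region types stayed called and kept their direction in all 18 alternatives and with each of the 50 regions left out. Background also differed between mock region types. The olfactory receptor mean was 1.41 in neurons and 1.65 in supporting cells, and the negative probe 1.09 and 1.54. With the olfactory receptor mean as covariate the mock differences were 1.135 for Slc17a7, 1.408 for Snap25, 1.55 for Calb2 and 1.984 for Thy1. For Slc17a7 between noise region types the log2 value ran from 0.42 to 1.58, the widest relative range of the 8. In noise against mock neurons, Slc17a7 passed the threshold in 10 of 18 alternatives: -0.40 with a pseudocount of 10, -0.74 with the filter at the median, with robust eBayes without trend and in a fit of the 2 groups alone, -0.82 with noise neuron replicate 6 kept, -0.77 scaled by median of ratios, -0.76 in edgeR, -0.80 in DESeq2, -0.78 without 12 shallow regions and -0.82 with log10 total reads as covariate. The last 2 were chosen after seeing the data. Its limma adjusted p ran from 0.501, with the olfactory receptor mean as covariate, to 0.0135 among the limma fits. Leaving out 1 region gave -0.81 to -0.65, and the call was made without mock neuron replicate 3 (adjusted p 0.0418), mock neuron replicate 4 (0.0336) or noise neuron replicate 4 (0.0437). Snap25 in neurons passed in edgeR (-0.62) and DESeq2 (-0.64). No called difference changed sign. Uncalled differences that did were, counting alternatives and left-out regions together, Snap25 and Thy1 in supporting cells (13 times each), Calb2 in neurons (1) and Slc17a7 in the interaction (1).

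Title replicate numbers did not consistently pair the regions by captured area: mock replicate 2 was in area 2 for neurons and area 3 for supporting cells. Correlations cannot decide this. Same-numbered regions correlated at 0.0608 at most over 41 pairs, but 21 pairs of the same area also had a median of only 0.0269 and a highest value of 0.106. With the title number as a replicate block, Slc17a7 in neurons was at -0.69 (limma adjusted p 0.161), Snap25 at -0.54, and the count of genes called there was 19. With the captured area as a random block (correlation 0.0389) Slc17a7 was at -0.74 (adjusted p 0.0638).

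The 31 genes called in noise neurons became 47 with a pseudocount of 10, 3 with the olfactory receptor covariate or with 1 read subtracted, 7 with the negative probe subtracted, 161 in edgeR, 126 in DESeq2 and 12 to 35 with 1 region left out. They were 12 without noise neuron replicate 2, 16 without replicate 1 or 10, and 19 without replicate 9 or mock neuron replicate 9 or 10. The 893 between mock region types became 407 with that covariate, 492 in DESeq2 and 581 with log10 total reads. The 372 between noise region types became 217 in DESeq2 and 238 with log10 total reads. The 17 in supporting cells became 26 (pseudocount 10), 11 (no filter), 9 (1 read subtracted), 7 (edgeR), 4 (2 groups alone) and 3 to 21 with 1 region left out. They were 3 without noise supporting-cell replicate 7, 7 without replicate 5 or 8, 11 without replicate 4, 9 without mock replicate 12, 10 without mock replicate 6 and 11 without mock replicate 8 or 9. The 0 interaction calls became 1 with a pseudocount of 10. The cause of these shifts was not tested. Depth limits supporting cells most, where the members had medians of 2.5 to 7 reads.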
